A study of Homo sapiens with 2 samples.

Results

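The 6 retinoid receptor genes of the human genome, RARA, RARB, RARG, RXRA, RXRB and RXRG, were examined for binding of tagged ERG among 19974 protein-coding genes. The family was chosen by a measured value, the fold enrichment of the RARA peak, which is the highest in the deposited list, so that value is a description and carries no test. A gene counted as having a peak when a summit lay inside it or within 10 kb of it. By that rule 1 of the 6 receptors, RARA, had 1 of the 1645 listed peaks, and RARB, RARG, RXRA, RXRB and RXRG had none. The nearest miss was RXRB, with a summit 98.3 kb away. Over all protein-coding genes 9.58% had a peak by the same rule. Because the family was picked for the RARA peak, nothing is read from the comparison of 1 in 6 with that share.

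The cells were F36P, a human erythroleukaemia line. One library came from cells carrying ERG joined to an AM tag in the retroviral vector MSCV-PIG (AM-ERG), and the other from cells carrying the empty vector (Vector). Selection was with puromycin (1 µg/ml) over 4 days in each case, and the chromatin was digested with micrococcal nuclease and precipitated with an antibody to the tag. The ERG measured is therefore the copy supplied by the vector, on top of whatever the cells make themselves. With 1 library of each kind there was no replicate error and no test between AM-ERG and Vector. All values below come from 1 list of peaks. The sources used here do not say from which library the list was called, or whether the other one was its control. Fold enrichment is the authors' value over the local background at the summit.

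Retinoic acid receptors (RAR) bind DNA as partners of retinoid X receptors (RXR). Without ligand the pair holds corepressors on its target genes, and all-trans retinoic acid exchanges them for coactivators. In blood cells RARA is the best known member, because its fusion to PML drives acute promyelocytic leukaemia and is the target of all-trans retinoic acid in treatment. RXRA, RXRB and RXRG are partners shared with many other nuclear receptors. ERG is an ETS-family factor, and ETS proteins recognise DNA around a GGAA core.

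The sequence of the RARA peak could be read only at its lower-coordinate edge, where a RefSeq transcript-start window (build GRCh38.p14, 250 bases before to 50 after a start) reached into it. The 131 bases shared by the window and the peak, 23.8% of the peak's length, are shown. They are the part of the peak of highest fold whose letters were at hand. They are on the minus strand, from chr17:40322644-40322774, ending 98 bases short of the summit, and capitals mark TTCC, the GGAA core read on the other strand.

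RARA peak, lower edge: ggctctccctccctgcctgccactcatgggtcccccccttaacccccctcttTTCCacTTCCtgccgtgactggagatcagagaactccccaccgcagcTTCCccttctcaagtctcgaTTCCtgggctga

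This stretch held 4 GGAA cores, all on the plus strand, with centres 152, 158, 199 and 219 bases from the summit. A GGAA on either strand is common: 76.5% of all 35116 start windows held one in their first 131 bases. The second core lay within CAGGAAGT, a longer ETS-type word that was looked for after the sequence had been seen. That word occurred in the first 131 bases of 0.960% of all windows. The forms CCGGAA and ACAGGAA, the GATA word GATAA and the receptor binding word AGGTCA were searched on both strands and were not in the stretch. Each match is a description of letters. The summit itself and the remaining bases of the peak were not read.

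The RARA peak lay inside the gene, away from the starts of RARA transcripts. RARA (gene 5914, plus strand) spans chromosome 17 from 40309180 to 40357643. Its peak ran from 40322644 to 40323194 with the summit at 40322872. Of the 3 RARA starts in the RefSeq table, at 40309180, 40318245 and 40342166, the first was 13.7 kb and the second 4627 bp before the summit, and the third was 19.3 kb beyond it. Transcripts from the first 2 starts run across the peak if they reach the end of the gene, and those from the third begin past it. None of the 3 start windows overlapped a peak. Exons were not listed in the annotation used here, so exon and intron were not separated.

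The window of the RARA start nearest to the peak, chr17:40317995-40318294 on the plus strand, is shown for comparison with the peak's edge, with GGAA and TTCC again in capitals.

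RARA, second start: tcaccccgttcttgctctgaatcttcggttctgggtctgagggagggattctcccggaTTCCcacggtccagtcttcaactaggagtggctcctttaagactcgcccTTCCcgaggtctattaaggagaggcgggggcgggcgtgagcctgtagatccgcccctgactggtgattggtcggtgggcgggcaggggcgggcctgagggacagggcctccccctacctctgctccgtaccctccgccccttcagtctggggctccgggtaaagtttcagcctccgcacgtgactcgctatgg

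It held 2 cores and no CAGGAAGT, while the windows of the RARA starts at 40309180 and 40342166 held 6 cores each. Each window is 300 bases long and the stretch at the peak's edge 131, so these counts of cores are over unlike lengths.

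The nearest annotated start to the RARA peak belonged to another gene. LOC105371934, a long noncoding RNA gene, lies inside RARA on the opposite strand, from 40315193 to 40322524. Its start was 348 bp below the summit, which put the summit upstream of that start and just outside the noncoding gene, and its transcript runs away from the peak across the second RARA start. A second antisense gene, RARA-AS1, covers the third RARA start, and its own start was 20.3 kb from the summit. Counting starts of any gene, 63.3% of the 1484 peaks that could be placed had a start within 1 kb, with a median distance of 306 bp, close to that of the RARA peak. Counting protein-coding starts only, 59.3% did. The RARA peak was among the 59 peaks (3.98%) within 1 kb of some other start but of no coding one. The start table lacks chromosome 8 and is not complete for other genes, so such distances are upper limits.

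**Figure D1:**
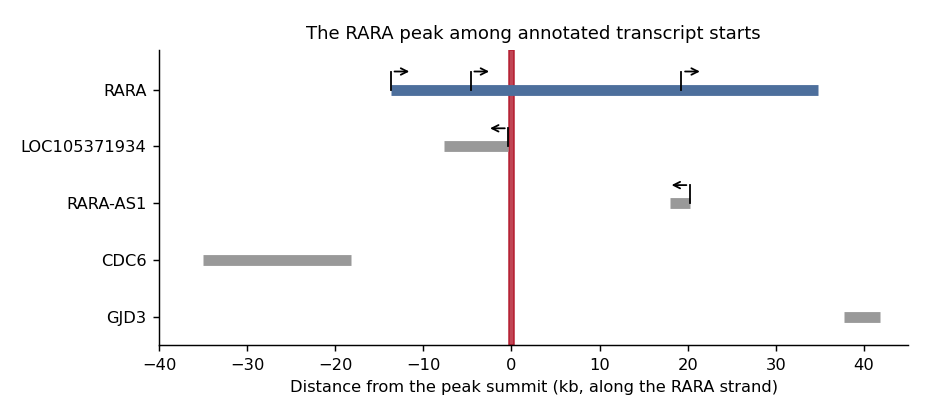
Position of the RARA peak (red band, 551 bp wide) among genes on chromosome 17, in kb from the summit, with bars for gene spans and bent arrows for transcript starts and their direction. CDC6 and GJD3 are drawn without arrows. The peak sits between the RARA starts 4627 bp before and 19.3 kb beyond the summit and 348 bp from the start of LOC105371934.

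In strength the RARA peak stood first in the list by fold and on the lowest background. Its fold enrichment was 23.3, 1.49 times the 15.7 of the next peak, in CTTN, and the median of all peaks was 4.62. In the authors' deposited table its −log10 q was 71.4, which is a q of 4.10e-72, and it ranked 7th by p. The pileup recovered from fold and p was 67 fragments at the RARA summit, against a median of 21 in the list. The background recovered there was 1.92 fragments, against a median of 3.52, and 1.92 was the lowest value, shared by 141 peaks within a tolerance of 0.001. Whether 1.92 is a level measured at each site or a lowest value set in peak calling was not tested. Among those 141 the next fold was 11.3, and their median fold was 5.48.

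Counting error alone sets an exact 95% Poisson interval of 51.9 to 85.1 fragments on the RARA pileup, or 18.1 to 29.5 on its fold with the background held fixed. These intervals cover counting error only, and the read depth of the libraries is unknown. CTTN, the gene of cortactin, which binds branched actin filaments, had a pileup of 54 fragments and an interval of 11.8 to 20.4. MIER1, a corepressor gene, had 47 fragments and a fold of 15.3 (11.3 to 20.2). MYL12B, a myosin light chain gene, had the larger pileup of 125 fragments on a background of 7.74, which gave a fold of 14.4 (12.0 to 17.1). SCYL3, with a fold of 13.9 (10.3 to 18.6), had 45 fragments. ARPC3, a subunit gene of the actin-nucleating Arp2/3 complex, had a fold of 13.6 (10.2 to 17.8). Since RARA was chosen as the highest of the list by fold, these intervals describe the precision of each value and are not compared.

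**Figure D2:**
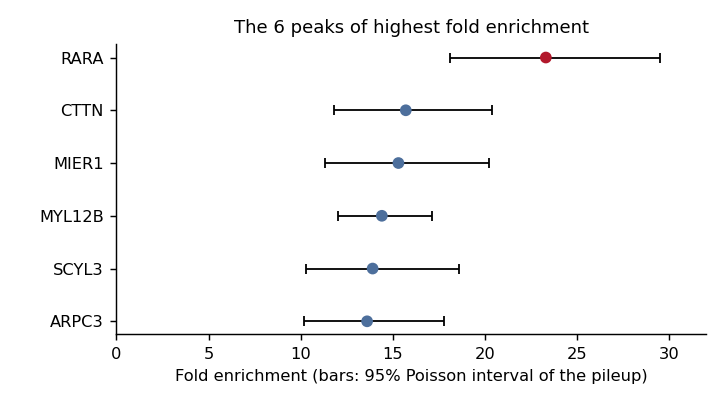
Fold enrichment of the 6 peaks of highest fold, named by the nearest protein-coding gene, with exact 95% Poisson intervals of the pileup over a fixed background. The RARA fold is 23.3 (18.1 to 29.5), and the other 5 folds are 13.6 to 15.7.

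The place of the RARA peak depended on how background was weighed. By pileup alone it ranked 161st of 1645. Of the 160 peaks with more fragments, 158 had a background above 7.04, which is 2 times the median, so that on chromosomes 1 to 22 and X it was 3rd among peaks at or below that level. With 10 in place of 1 added to pileup and background its fold was 6.46 and its rank 2nd, behind MYL12B.

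**Figure D3:**
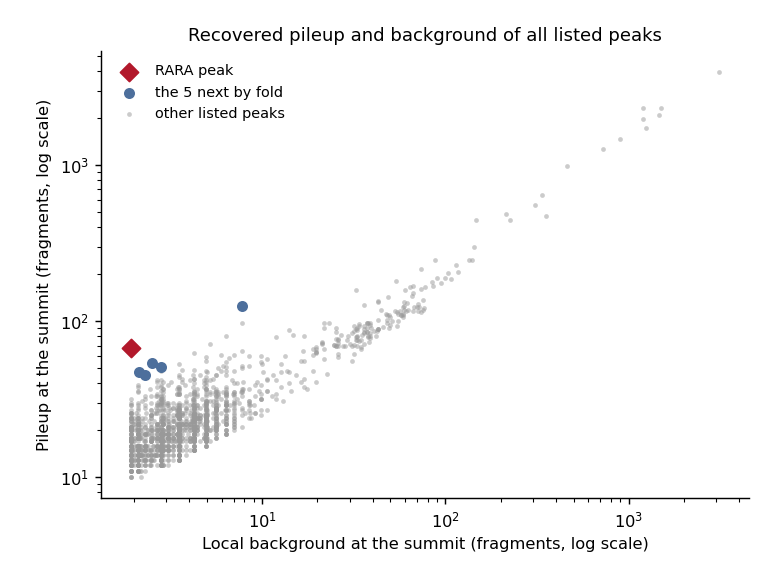
Recovered pileup against local background at the summit, in fragments on log axes, for all 1645 peaks. The RARA peak (red diamond, 67 fragments over 1.92) lies at the left edge with the lowest background, above all other peaks there, while the peaks of higher pileup lie to the right.

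The RARA peak had no listed neighbour nearby. No other summit fell within 100 kb. The next one below was 4736 kb away at a start of AP2B1 (fold 5.46), and the next above was 1366 kb away, 243 bp from a start of EIF1 (fold 8.65). The 6.10 Mb between those neighbours hold 165 protein-coding genes. The median gap between neighbouring peaks on a chromosome was 477 kb. Of the 1541 gaps, 30.4% exceeded the upper flank of 1366 kb, and 169 exceeded the lower flank of 4736 kb. The 6.10 Mb stretch joins both flanks and was not set against these single gaps. The genes on either side of RARA had no peak of their own. CDC6, which loads the replicative helicase, ended 18.2 kb from the summit, and GJD3, a gap junction gene, began 37.8 kb from it. TOP2A, the topoisomerase of dividing cells, began 65.7 kb away. A pair of other nuclear receptor genes lie in the same stretch, NR1D1 at 222 kb and THRA at 229 kb, also without a peak.

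The 2 other RAR genes had no peak. RARB (gene 5915) encodes retinoic acid receptor beta and is itself a classical target of retinoic acid. It is the longest of the family at 769 kb, spanning chromosome 3 from 24829321 to 25597932, and no summit fell anywhere in it or at its 4 annotated starts. Among the 249 other protein-coding genes within 1.5 times its length in either direction, 16 (6.43%) had a peak. Its nearest summit was 912 kb away, beside a start of RPL15, with a fold of 5.98. RARG (gene 5916, chromosome 12, 53210569 to 53232209), the receptor best known from skin, is 21.6 kb long. The nearest summit to RARG was 957 kb away with a fold of 6.16. Of 4191 genes of like length to RARG, 11.7% had a peak.

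The 3 RXR genes, which encode the shared partners, had none either. The nearest summit to RXRA (gene 6256, chromosome 9, 134326455 to 134440585) was 908 kb away, 46 bp from a start of REXO4, with a fold of 4.38. RXRB (gene 6257, chromosome 6, 33193588 to 33200853) had a summit 98.3 kb away, 187 bp from a start of RGL2, with a fold of 4.79. The nearest to RXRG (gene 6258, chromosome 1, 165400922 to 165445126) was 253 kb away, 150 bp from a start of ALDH9A1, with a fold of 7.53. Each of these 3 peaks thus lay at a start of another gene, as did that nearest to RARB, and the one nearest to RARG was 231 bp from a start of the noncoding gene LOC105369777. Genes within 1.5 times the length of these receptors had a peak in 9.68% of cases for RXRA, 10.0% for RXRB and 10.9% for RXRG. RXRB lies in a region with alternate sequences in the assembly, and 4 listed peaks on alternate sequences of chromosome 6 were not placed relative to it.

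Set against the 18061 protein-coding genes without a peak, whose nearest summit was a median of 519 kb away (quartiles 165 and 1679 kb), RARB, RARG and RXRA were somewhat farther than the median and RXRB and RXRG nearer. RXRB, at 98.3 kb, was nearer than the lower quartile, and the other 4 lay between the quartiles. A gene without a listed peak may still bind ERG below the list's threshold, since the largest q in the list was 0.0474.

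**Figure D4:**
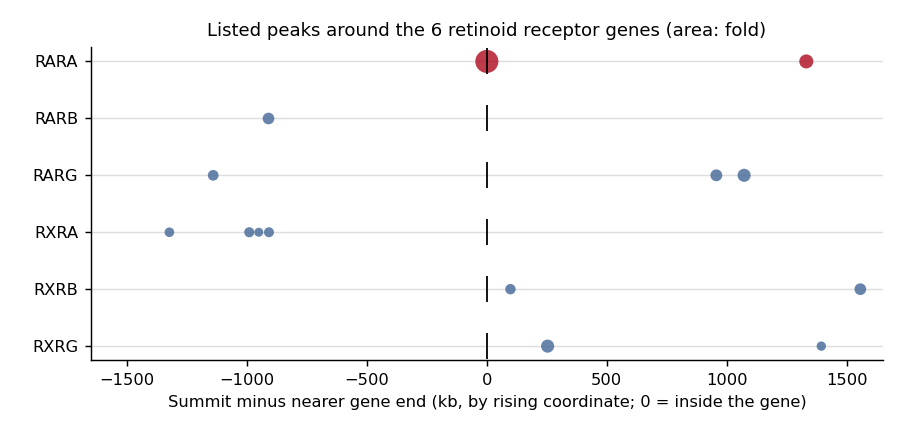
Listed peaks within 1600 kb of each retinoid receptor gene, in kb from the nearer gene end by rising coordinate, with 0 for a summit inside the gene and marker area in proportion to fold. RARA has a peak at 0, and the nearest peak of the other 5 lies 98.3 to 957 kb away.

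The starts of the receptor genes were then compared by sequence with starts that held a summit. Of the 35116 start windows in the table, 449 (1.28%) held a summit, and 319 of those (71.0%) contained CCGGAA on either strand, an ETS word that contains the GGAA core, as do ACAGGAA and CAGGAAGT. In all windows the share was 17.2%. The 6 receptors have 13 windows, and 1 of them contained CCGGAA. None of the 13 overlapped a peak, against 3.14% of all windows. Windows of neighbouring starts overlap. The median GC content was 68.7% in windows with a summit and 58.7% in all windows (62.0% in those of the receptors), and its part in the difference was not tested.

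Parts of an RXRA and an RXRB window are shown, because these receptors hold longer ETS words although they have no peak. The windows of RARB, RARG and RXRG, which also have no peak, held none of the longer ETS words searched. In RXRA the word CCGGAA (capitals) lay 122 bp before the second start, at chr9:134379159-134379186 on the plus strand. In RXRB the word CAGGAAGT (capitals) lay 12 bp before the upstream start, at chr6:33200851-33200880 on the minus strand, and 2 overlapping RXRB windows contain it.

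RXRA, second start: cacagcaggacCCGGAAttatgctgttc
RXRB, upstream start: tcccgcgagaaCAGGAAGTtccgttccacc

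The RXRB word is the same one found at the edge of the RARA peak, and no peak was listed at RXRB. CAGGAAGT occurred in 6.24% of windows with a summit and in 3.08% of all windows. ACAGGAA occurred in 6.90% of windows with a summit and in 7.07% of all, and in 3 receptor windows, of which 2 are the overlapping RXRB windows and the other is the first RARA window. The word AGGTCA, to which RAR and RXR bind as repeats, was in 3 receptor windows, 1 each of RARA, RARB and RXRG, with 10.5% of windows with a summit and 13.8% of all.

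RARB carries the textbook retinoic acid response element, a direct repeat of a 6-base word with 5 bases between the copies, which lay 37 bp before the start at 25428263. It is shown with the copies in capitals, at chr3:25428210-25428226 on the plus strand.

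RARB, response element: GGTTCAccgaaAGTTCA

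The form searched, GTTCA and AGTTCA with any 5 bases between them on either strand, was chosen with this element in mind and was found in 12 of all 35116 windows. None of the 449 windows with a summit held it, and no other receptor window did. At 0.0342% of all windows the form is so rare that nothing is read from these absences.

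Other nuclear receptors had peaks of ordinary strength. Of the 48 nuclear receptor genes 7 had a peak (14.6%), and of the 42 outside the retinoid receptors 6 did (14.3%), beside 9.58% of all protein-coding genes. At 50.9 kb the median length of the 48 genes was above the 24.2 kb of all. The strongest peak per gene had a median fold of 5.11 in the 6 genes other than RARA, near the 4.91 of all genes with a peak.

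PPARD and NR1H2 had peaks inside the gene, and NR4A2 had a peak beside it. PPARD, a receptor for fatty acids, had 2 peaks inside the gene, of 4.72 fold 331 bp from its start and of 4.18 fold 28362 bp from it. NR1H2, the ubiquitous liver X receptor that senses oxysterols, had a peak of 4.48 fold 169 bp inside its start, on a raised background of 7.04. NR4A2, an immediate-early orphan receptor, had a peak of 5.43 fold 1343 bp outside the gene. The rest were counted through peaks at a neighbouring gene or shared with it. NR1H3, the other liver X receptor gene, was counted through 2 peaks, of 3.76 and 4.79 fold, at starts of its neighbour MADD. NR5A1 and NR6A1, which are adjacent, shared 1 peak of 5.80 fold between them, so 2 of the 6 genes rest on the same peak. That peak lay 4825 bp from the start of NR5A1 and 5051 bp outside NR6A1.

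Peaks were next counted at the genes that make, carry and read retinoic acid. Of 22 genes of retinoid metabolism and binding 1 had a peak (4.55%), beside 9.58% of all genes. It was CRABP2, which carries retinoic acid to the nuclear receptors, with a fold of 4.96 at 949 bp upstream of its start. Of 20 cofactor genes 2 had peaks (10.0%), close to the share of all genes. NCOA2, a coactivator of liganded receptors, had 1 peak of 7.23 fold inside the gene. The corepressor NCOR1 and the coactivators NCOA1 and NCOA3 were among the 18 without.

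Genes known as fusion partners of RARA in leukaemia had peaks at 3 of 14 (21.4%), beside 9.58% of all genes. Their median length was 86.2 kb, against 24.2 kb for all protein-coding genes. Those with a peak were PRKAR1A (6.13 fold, 61 bp from a start), STAT3 (6.29 fold, 154 bp from its start) and BCOR (3.54 fold, 4500 bp from a start). PML itself, the partner in acute promyelocytic leukaemia, was among the 11 without a peak, as were ZBTB16, NPM1, NUMA1 and STAT5B. The counts in these lists are small, and no list was tested.

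**Figure D5:**
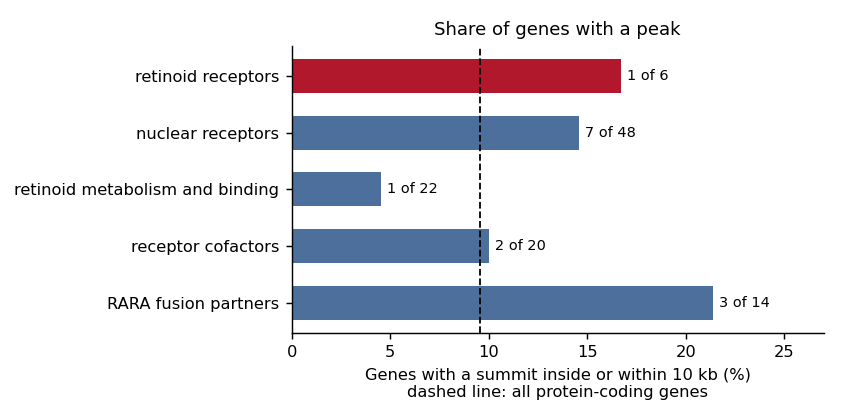
Share of genes with a summit inside or within 10 kb, in percent, for the retinoid receptors and 4 related gene lists, with counts beside the bars and the share of all protein-coding genes (9.58%) as a dashed line. The nuclear receptor list includes the 6 retinoid receptors, and each bar rests on 1 to 7 genes with a peak.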

How the data were processed

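AM-tag ChIP-seq of F36P cells was deposited as 1 headerless list of narrow peaks. The build hg38 and the tools MACS2, Bowtie2 and deepTools are listed, per the submitters' processing notes, without roles, versions or settings. For every peak the authors deposited the summit offset, a score, the fold enrichment as a ratio over local background, and both a p-value and a q-value as −log10. Read depth is unknown. From fold and p the pileup and background at each summit were recovered, with fold taken as pileup plus 1 over background plus 1 and p as a Poisson tail. This returned the deposited p of 1645 of 1645 peaks within 0.001 in −log10 p. Tested on simulated data, it recovered 300 of 300 peaks. Those peaks were made with the same formulas, so this checks the arithmetic and not the formulas. None had as high a pileup over as low a background as the RARA peak.

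Genes, transcript starts and sequences were those of RefSeq, GRCh38.p14, and all 103 list genes were matched by symbol. For genes, 1564 peaks were used, those on chromosomes 1 to 22 and on X. The members and lists were chosen with earlier results of these data known. Named are the 6 receptors, genes flanking the RARA peak, list genes with a peak (some not reported here) and the 5 peaks next by fold. Other genes are named as examples of those without a peak, and AP2B1 and EIF1 as the places of peaks set beside that of RARA. Alternatives covered window, summit against interval, threshold, background and starts. A genome sequence was not used here, so the peak was searched for motifs only in part. Python 3.11.15 was used with SciPy 1.17.1, numpy 2.4.6, pandas 2.3.3 and, for figures, matplotlib 3.10.9.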

Additional observations from a re-analysis of the deposited data

How the results depend on the processing

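RARA kept its peak, and the other 5 receptors had none, under all 8 alternatives of window, overlap, threshold and background. These settings could hardly change the count, because the RARA peak was chosen as the highest by fold and lies inside the gene. The nearest summit to another receptor, 98.3 kb from RXRB, lay beyond the widest window of 50 kb. Distances to the nearest peak moved by less than 1.5 times when taken from the peak's edge. The fold of the RARA peak was 10.4 with 5 added and 6.46 with 10 added to pileup and background, by construction of the ratio. Its rank was 2 with 10 added and 161 with the lowest background for every peak. The nearest start was 4627 bp away with protein-coding starts only, a setting chosen after seeing the data. Nuclear receptors with a peak numbered 3 (2 without RARA) inside the gene, 4 (3) within 1 kb and 12 (11) within 50 kb, where the share of all protein-coding genes was 5.0%, 7.23% and 17.7%. Inside the gene the receptors thus stood at 6.25%, and at 4.26% (2 of 47) without RARA, both near the 5.0% of all genes. The 10 kb window gave 14.6% beside 9.58%. With so few genes inside, no direction is read from the shares without RARA. The lists of metabolism, binding and cofactor genes gave 3 of 42 together (7.14% beside 9.58% of all genes), 5 within 50 kb (11.9% beside 17.7%), 1 in the upper 50% of peaks by q (2.38% beside 5.0%) and 3 in the upper 50% by fold (7.14% beside 5.48%), so the direction of this difference depended on the setting. NR1H2 drops out without peaks of raised background because its own, 7.04, lies on that limit, where rounding decides. In the 100 bases before the start, 7 receptor windows held GGAA in place of 12, 0 held CCGGAA, and 1 held each of the other 4 words of the search that were found in more than 1 window, as a shorter window implies. No paired analysis was possible because there is 1 library per group, without a replicate number. Motifs around the RARA summit and transcripts taken singly were not run.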
